A study of Mus musculus with 12 samples.

Results

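The 10 genes described here belong to 2 interferon-inducible GTPase families and were measured in MC38 tumors. They are the guanylate-binding proteins (GBPs) Gbp2, Gbp3, Gbp5, Gbp6 and Gbp7, and the immunity-related GTPases (IRGs) Irgm1, Irgm2, Igtp, Iigp1 and Tgtp1. They were chosen by gene symbol, as 10 of the 18211 genes of the expression table, with earlier results of these data known. MC38 is a colon carcinoma cell line of C57BL/6 mice, and the cells were grown under the skin of female mice of that strain that were 5 weeks old. Mice were divided on day 7 into 4 groups, and 3 tumors of each group were sequenced as bulk RNA. The study asked what PB-020, which blocks a receptor for insulin-like growth factor (IGF-1R), and an antibody against the checkpoint receptor PD-1 did alone and together.

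The CK group received vehicle only. The PB-020 group received 50 mg/kg of PB-020 per day by oral gavage. The anti-PD-1 group received 200 μg of antibody per mouse into the peritoneum on days 9, 12, 15 and 18. The PB-020+anti-PD-1 group, called the combination here, received both. All groups carried the same tumor line in immunocompetent hosts, and the sources used here tie each library to one tumor of its group without saying whether the tumors came from separate batches of animals. The p-values therefore measure the spread between these tumors.

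GBPs and IRGs are large GTPases that cells make in quantity when interferon gamma, a cytokine of T cells and natural killer cells, reaches its receptor and switches on transcription factors such as IRF1. Many cell types can make them, tumor cells and macrophages included. GBPs and the effector IRGs coat the membrane of vacuoles that hold microbes and help to break it, whereas the regulatory IRGs sit on the cell's own membranes and hold the effectors inactive there.

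On GRCm38.p6, Gbp5 (chr3:142496934-142522344), Gbp7 (chr3:142530336-142550151), Gbp3 (chr3:142560016-142573213) and Gbp2 (chr3:142620663-142638008) lie close together on chromosome 3, with Gbp2b between Gbp3 and Gbp2, and Gbp6 lies at chr5:105270702-105295871. Irgm1 (chr11:48865245-48871420) and Tgtp1 (chr11:48985329-48992246) lie near each other on chromosome 11, as do Igtp (chr11:58199556-58207592) and Irgm2 (chr11:58214977-58222783). Iigp1 lies apart from both families' clusters named here. All 10 are annotated as protein-coding genes.

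The promoter sequences are shown first because every member with an entry in the RefSeq promoter table (8 of 10 members, GRCm38.p6) held a match to at least 1 of 2 interferon motifs. The motifs searched, on both strands, were the interferon-stimulated response element, read as GAAA, any 2 letters and GAAA, and the gamma-activated site, TTCNNNGAA, in windows of 300 bases that run from 250 bases before the start to 50 bases from it. Capitals mark the matched motifs. Each stretch ends just before the outermost base of the annotated gene. For the GBP genes on chromosome 3 the stretches were chr3:142620553-142620662 for Gbp2, chr3:142559934-142560015 for Gbp3, chr3:142496764-142496933 for Gbp5 and chr3:142530226-142530335 for Gbp7, all on the plus strand.
Gbp2: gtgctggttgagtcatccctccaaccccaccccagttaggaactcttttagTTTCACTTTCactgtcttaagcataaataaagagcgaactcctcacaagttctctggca
Gbp3: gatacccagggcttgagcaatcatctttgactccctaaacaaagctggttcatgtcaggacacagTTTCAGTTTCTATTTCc
Gbp5: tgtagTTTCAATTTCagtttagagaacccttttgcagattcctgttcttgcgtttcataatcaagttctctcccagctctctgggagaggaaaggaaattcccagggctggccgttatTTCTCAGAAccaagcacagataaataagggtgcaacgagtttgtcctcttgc
Gbp7: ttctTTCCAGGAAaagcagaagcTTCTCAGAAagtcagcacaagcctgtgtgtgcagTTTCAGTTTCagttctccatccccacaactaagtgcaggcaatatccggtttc

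For the IRG genes on chromosome 11 they were chr11:48871421-48871530 on the minus strand for Irgm1, chr11:58214867-58214976 on the plus strand for Irgm2, chr11:58199446-58199555 on the plus strand for Igtp and chr11:48992247-48992356 on the minus strand for Tgtp1.
Irgm1: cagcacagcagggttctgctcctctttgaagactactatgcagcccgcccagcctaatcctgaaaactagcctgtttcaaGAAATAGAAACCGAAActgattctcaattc
Irgm2: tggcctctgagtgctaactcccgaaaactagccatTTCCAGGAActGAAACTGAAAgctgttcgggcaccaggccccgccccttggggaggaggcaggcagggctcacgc
Igtp: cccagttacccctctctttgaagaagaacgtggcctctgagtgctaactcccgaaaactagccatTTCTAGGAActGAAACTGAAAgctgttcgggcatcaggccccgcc
Tgtp1: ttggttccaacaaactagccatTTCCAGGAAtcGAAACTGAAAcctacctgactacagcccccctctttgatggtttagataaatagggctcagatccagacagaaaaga

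The interferon-stimulated response element was found in 8 of 8 member genes with an entry and in 3.44% of all 32851 promoter entries. The gamma-activated site was found in 5 of the 8, namely Gbp5, Gbp7, Irgm2, Igtp and Tgtp1, and in 8.3% of all entries. In Irgm2, Igtp and Tgtp1 the gamma-activated site was followed after a gap of any 2 letters by the response element, an arrangement held by 5 of the 32851 entries (0.0152%). Among 12 other GTPase genes with an entry, 2 held it, 5 held the response element (41.7%) and 3 the gamma-activated site (25%). Of 16 genes listed as targets of type I interferon, 10 held the response element and 3 the gamma-activated site. In Gbp3 and Irgm1 a pair of response elements overlapped each other. A match describes letters in a window and does not show that a factor bound there. The start given by RefSeq lay in a GENCODE transcript of the gene for 7 of the 8 members, Gbp7 being the one without it.

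**Figure D1:**
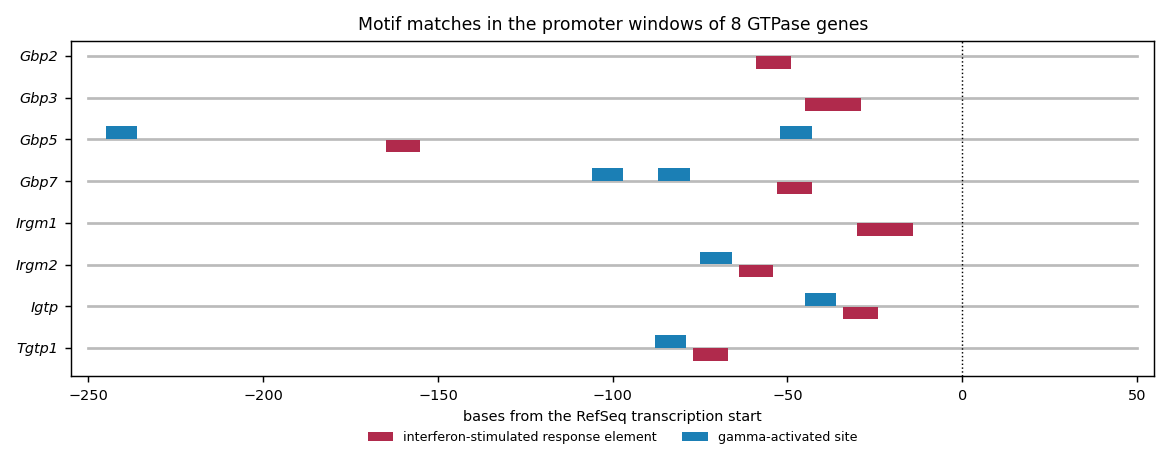
Position of motif matches in the 300-base RefSeq promoter windows of the 8 GTPase genes with an entry, in bases from the transcription start (dotted line); red boxes are interferon-stimulated response elements and blue boxes gamma-activated sites on either strand. All response elements except that of Gbp5, at -165, started within 80 bases of the start.

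The 12 libraries were even in depth, with 16545394 to 17217035 expected counts each. Levels are given as FPKM, fragments per kilobase of transcript scaled to the depth of the library, so that they can be compared between genes. Macrophage markers were high (summed FPKM of 10 macrophage markers 1673.8 to 3223.14), whereas B cell markers (0.37 to 1.41 over 5 genes) and epithelial markers were near 0: the summed level of 8 epithelial genes was 2.37 to 4.33, most of it Cdh1, and Epcam did not exceed 0.54 FPKM in any tumor although MC38 is a carcinoma line. The anti-PD-1 tumor 1 stood apart with 587.21 FPKM over 10 skeletal muscle genes against 12.71 to 66.77 in the other 11, and CK tumor 3 with 412.44 FPKM over 7 neutrophil genes against 6.07 to 32.98. Counts of calls that moved by over 1.5 times without these or other tumors are given beside each count. 

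All 10 genes were higher in tumors that had received the antibody, with or without PB-020, and no member differed between PB-020 alone and CK beyond the spread between tumors. Added over the 10 genes, the level was 633.5, 326.81 and 662.2 FPKM in the CK tumors, 652.92, 355.51 and 820.5 with PB-020, 1631.43, 974.27 and 1293.8 with anti-PD-1, and 1198.65, 1392.38 and 1232.46 in the combination. The lowest antibody-treated tumor thus lay above the highest tumor without the antibody. In bulk tissue, a larger number of cells that make these transcripts and more transcript per cell cannot be told apart.

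**Figure D2:**
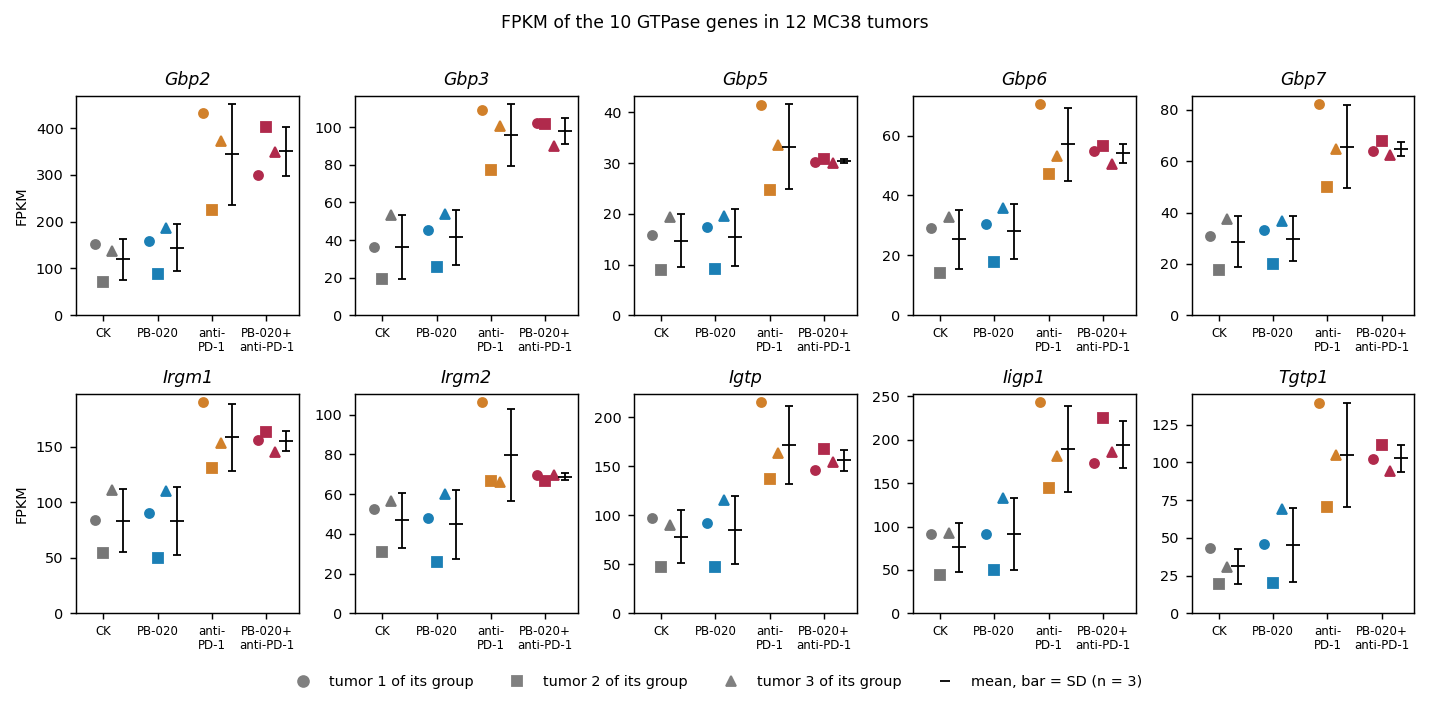
FPKM of each of the 10 GTPase genes in the 12 tumors (linear axes from 0; circles, squares and triangles are tumors 1, 2 and 3 of each group; black bars are the mean and SD, n = 3). In every panel the 6 antibody-treated tumors sit above the 6 others.

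Gbp2 was the most abundant GBP; its protein carries a lipid anchor and gathers on vacuoles and other damaged membranes. Its level was 151.84, 70.19 and 136.73 FPKM in the CK tumors, 158.63, 88.72 and 186.04 with PB-020, 432.76, 225.06 and 372.78 with anti-PD-1 and 298.70, 401.75 and 349.78 in the combination. Both antibody groups lay wholly above both others. Against CK, the log2 change was 1.54 ± 0.38 (SE) with anti-PD-1, a 2.91-fold difference (adjusted p = 0.0424), and 1.57 ± 0.38 in the combination (adjusted p = 0.0242; edgeR's quasi-likelihood test with Benjamini-Hochberg adjustment over the 13563 genes tested, n = 3 per group, here and for every adjusted p that follows).

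Gbp3, of the same run of genes on chromosome 3 as Gbp2, read 36.46, 19.45 and 53.50 FPKM in CK, 45.12, 25.44 and 54.04 with PB-020, 109.37, 77.48 and 100.54 with anti-PD-1 and 102.50, 101.96 and 90.14 in the combination. No tumor without the antibody reached 60 FPKM. The log2 change was 1.40 ± 0.37 with anti-PD-1 (adjusted p = 0.0526) and 1.44 ± 0.37 in the combination (adjusted p = 0.0311), so that the threshold of 0.05 was passed in the combination and narrowly missed with anti-PD-1. Gbp7, known for a role in the assembly of the NADPH oxidase on vacuoles, read 30.89, 17.78 and 37.38 FPKM in CK, 33.02, 19.84 and 36.63 with PB-020, 82.32, 50.09 and 64.64 with anti-PD-1 and 64.01, 67.78 and 62.60 in the combination. It was raised in both comparisons, by 1.21 ± 0.31 (adjusted p = 0.0454) and 1.20 ± 0.31 (adjusted p = 0.0297) on the log2 scale.

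Gbp5, which is tied to activation of the inflammasome, had the lowest level of the 10 genes. It read 15.85, 8.96 and 19.39 FPKM in CK, 17.42, 9.04 and 19.61 with PB-020, 41.48, 24.63 and 33.67 with anti-PD-1 and 30.30, 30.78 and 30.01 in the combination. The 3 combination tumors differed by less than 1 FPKM (SD 0.389), against an SD of 8.43 with anti-PD-1. Its log2 change was 1.19 ± 0.34 with anti-PD-1 (adjusted p = 0.0638) and 1.06 ± 0.34 in the combination (adjusted p = 0.0612), neither past the threshold. Gbp6 lies on chromosome 5, away from the other 4, and read 29.21, 14.18 and 32.70 FPKM in CK, 30.57, 17.91 and 35.81 with PB-020, 70.55, 47.28 and 53.32 with anti-PD-1 and 55, 56.69 and 50.55 in the combination. Its groups were equally apart, with log2 changes of 1.19 ± 0.34 (adjusted p = 0.0629) and 1.11 ± 0.34 (adjusted p = 0.0509).

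The regulatory IRGs showed the smallest differences. Irgm1, which protects lysosomes and mitochondria of the cell itself, read 84.55, 54.40 and 111.29 FPKM in CK, 90.09, 50.21 and 110.41 with PB-020, 190.76, 131.38 and 153.55 with anti-PD-1 and 156.58, 163.30 and 145.22 in the combination. Its log2 change was 0.95 ± 0.32 with anti-PD-1 (adjusted p = 0.0974) and 0.92 ± 0.32 in the combination (adjusted p = 0.0757). Igtp, also called Irgm3 and found on the endoplasmic reticulum, read 97.10, 47.17 and 90.66 FPKM in CK, 92.53, 47.77 and 115.69 with PB-020, 215.49, 136.70 and 163.12 with anti-PD-1 and 146.45, 167.26 and 154.64 in the combination. The log2 changes were 1.15 ± 0.36 (adjusted p = 0.0830) and 1.01 ± 0.36 (adjusted p = 0.0834), and again no antibody-treated tumor fell within the range of the others.

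Irgm2, a Golgi member of the regulatory group, read 52.73, 31.02 and 56.60 FPKM in CK, 47.97, 26.11 and 60.22 with PB-020, 106.49, 66.84 and 66.07 with anti-PD-1 and 69.88, 66.62 and 69.91 in the combination. The groups still did not overlap, but the gap between the highest tumor without the antibody and the lowest with it was only 60.22 to 66.07 FPKM. Its log2 change was 0.79 ± 0.33 with anti-PD-1 (adjusted p = 0.171) and 0.58 ± 0.33 in the combination (adjusted p = 0.256; 95% interval -0.18 to 1.33), the smallest of the 10 in both comparisons.

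The 2 effector IRGs were both called in the combination and neither with anti-PD-1. In the combination against anti-PD-1, however, their log2 changes were only 0.04 (Iigp1) and -0.03 (Tgtp1). For Tgtp1 edgeR's unadjusted p against CK was smaller with anti-PD-1 (0.00459) than in the combination (0.00503). The adjusted p also depends on the p-values of all other genes tested. Iigp1 (Irga6) read 91.81, 43.85 and 92.96 FPKM in CK, 91.90, 50.13 and 132.74 with PB-020, 242.78, 144.09 and 181.00 with anti-PD-1 and 172.91, 224.43 and 185.39 in the combination. Its log2 change was 1.33 ± 0.40 with anti-PD-1 (adjusted p = 0.0745) and 1.37 ± 0.40 in the combination (adjusted p = 0.0462). Tgtp1 (Irgb6), one of the first IRGs to load onto a vacuole, read 43.06, 19.81 and 30.99 FPKM in CK, 45.67, 20.34 and 69.31 with PB-020, 139.43, 70.72 and 105.11 with anti-PD-1 and 102.32, 111.81 and 94.22 in the combination. The PB-020 tumor 3, at 69.31, came close to the lowest anti-PD-1 tumor at 70.72. Its log2 change was the largest of the 10, 1.76 ± 0.46 with anti-PD-1 (adjusted p = 0.0522) and 1.73 ± 0.46 in the combination (adjusted p = 0.0351). Tgtp1 and its neighbour Tgtp2 are near-identical, so the split of reads between them is uncertain. With both genes' counts added the log2 changes were 1.34 ± 0.41 (adjusted p = 0.0793) and 1.35 ± 0.41 (adjusted p = 0.0531), and the call in the combination was lost.

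Read together, anti-PD-1 against CK called 2 of 10 members as raised, Gbp2 and Gbp7, where 4.18% of all genes tested were called raised. All 10 had an unadjusted p under 0.05 in the upward direction (13.6% of all genes), with a fold over 1.5 as well (4.5% of all genes), and all 10 had groups that did not overlap (11.8% of all genes were higher without overlap). The combination against CK called 5 of 10, Gbp2, Gbp3, Gbp7, Iigp1 and Tgtp1 (8.35% of all genes called raised). All except Irgm2, 9 of the 10, had an unadjusted p under 0.05 (16.5% of all genes), with a fold over 1.5 as well (4.95% of all genes), and all 10 did not overlap (17.9% of all genes). The median log2 change of the members was 1.20 with anti-PD-1 and 1.16 in the combination, and that of all genes was 0.00 in both. Both comparisons used the same 3 CK tumors.

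These counts turned on single tumors. Against CK with anti-PD-1, the 2 calls became 0 when CK tumor 1, CK tumor 2, PB-020 tumor 1, anti-PD-1 tumor 1, anti-PD-1 tumor 3 or any of the 3 combination tumors was left out, 4 without anti-PD-1 tumor 2 and 9 without PB-020 tumor 2. In the combination the 5 calls became 0 without CK tumor 2, combination tumor 1 or combination tumor 2, 1 without combination tumor 3, 2 without CK tumor 1 or CK tumor 3, 3 without PB-020 tumor 1 or anti-PD-1 tumor 3, and 9 without PB-020 tumor 2. The median member change stayed positive over all 21 alternatives. It lay between 0.95 and 1.43 with anti-PD-1 and between 0.89 and 1.38 in the combination. In both comparisons the lowest value came without CK tumor 2 and the highest without CK tumor 3.

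**Figure D3:**
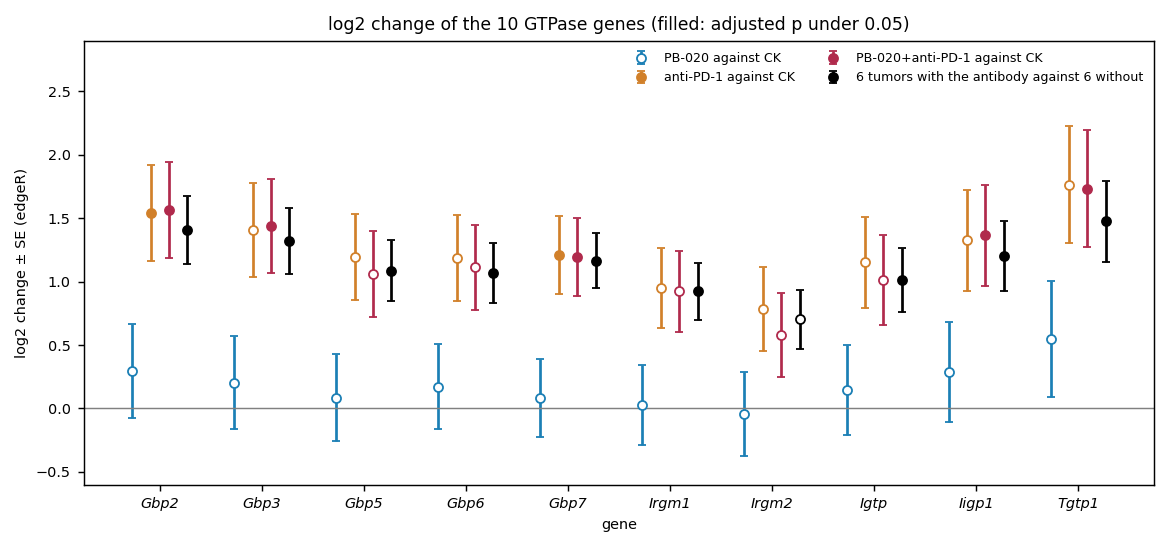
log2 change of each GTPase gene with its SE (edgeR) for PB-020, anti-PD-1 and the combination against CK, and for the 6 antibody-treated tumors against the 6 others; filled points have an adjusted p under 0.05. The PB-020 points lie between -0.04 and 0.55, and the antibody points between 0.58 and 1.76.

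With the 6 antibody-treated tumors set against the 6 others, 9 of 10 members were called raised, against 11.8% of all genes. All 10 had an unadjusted p under 0.05, against 18.9% of all genes, and all 10 did not overlap, against 3.54% of all genes. The largest were Tgtp1 at 1.47 ± 0.32 (adjusted p = 0.0137), Gbp2 at 1.41 ± 0.27 (adjusted p = 0.00723) and Gbp3 at 1.32 ± 0.26 (adjusted p = 0.00911). The rank of Tgtp1 rests on the uncertain split of reads with Tgtp2. With both genes' counts added the log2 change was 1.16 ± 0.29 (adjusted p = 0.0221), below those of Gbp2 and Gbp3. Gbp7 had the smallest adjusted p, 0.00657, at 1.16 ± 0.22. Iigp1 at 1.20 ± 0.28, Gbp5 at 1.09 ± 0.24, Gbp6 at 1.06 ± 0.24, Igtp at 1.01 ± 0.25 and Irgm1 at 0.92 ± 0.22 followed, with adjusted p-values of 0.0134 to 0.0222. Irgm2, at 0.70 ± 0.23, was the one not called (adjusted p = 0.0595). This comparison draws on the same tumors as the 2 before it and adds no new samples other than the PB-020 group. Leaving out any single tumor left between 8 and 10 calls.

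PB-020 alone did not move the members beyond the spread. None of the 10 was called by edgeR, DESeq2 or limma, none had an unadjusted p under 0.05 (5.46% of all genes in either direction), and 0% of all genes were called by edgeR. For none of the 10 did PB-020 lie wholly above CK (6.19% of all genes). The 10 log2 changes ran from -0.04 for Irgm2 to 0.55 for Tgtp1, with a median of 0.16. The intervals were wide: for Gbp2 the 95% interval of the log2 change ran from -0.55 to 1.14, and for Tgtp1 from -0.49 to 1.59, so that both reached above 1. Without CK tumor 2 the median was -0.12, and without PB-020 tumor 2 it was 0.42. When PB-020 was added to the antibody, none of the 10 members was called in either direction (0 at an unadjusted p under 0.05, against 7.26% of all genes; 0 by DESeq2 and limma; 0% of all genes called by edgeR) and none lay wholly above anti-PD-1 (5.12% of all genes), and the log2 changes ran from -0.21 for Irgm2 to 0.04 for Iigp1. The 95% interval for Gbp2 was -0.81 to 0.87 and that for Irgm2 -0.96 to 0.54.

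With the antibody on top of PB-020, all 10 genes were higher than with PB-020 alone without overlap (14.5% of all genes were higher without overlap), and 9 of 10 had an unadjusted p under 0.05 (10.2% of all genes) and a fold over 1.5 (3.89% of all genes), but none passed the adjusted threshold in edgeR, where 1.25% of all genes were called raised. DESeq2 called 4 of the 10 and limma none. Gbp7 had the smallest adjusted p, 0.0802, with a log2 change of 1.12 ± 0.31, and Gbp2 had the largest log2 change, 1.27 ± 0.38 (adjusted p = 0.0925). The median over the members was 1.03. On the log2 scale the estimated interaction was below 0 for all 10 genes, with a median of -0.23, but none of the interactions was called by edgeR, DESeq2 or limma (0% of all genes by edgeR) and none had an unadjusted p under 0.05 (2.29% of all genes), the lowest being 0.388 for Tgtp1. The 95% interval for Tgtp1 was -2.03 to 0.87. The 10 estimates share the same tumors: without CK tumor 2 the median interaction was 0.04, and without PB-020 tumor 2 it was -0.47.

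Within groups most of the 10 genes had the same tumor at 1 end of the range, though not at both ends in CK and the combination. CK tumor 2 and PB-020 tumor 2 were the lowest of their group for 10 of 10 members, anti-PD-1 tumor 2 was the lowest for 9 of 10, and PB-020 tumor 3 and anti-PD-1 tumor 1 were the highest for 10 of 10. Combination tumor 2 was the highest for 8 of 10, but the lowest was tumor 3 for 6 members, tumor 1 for 3 and tumor 2 for 1. In CK the highest was tumor 3 for 7 members and tumor 1 for 3. The sources used here do not say whether the tumor numbers pair tumors across groups, and the numbers were not taken to do so. Each member followed the mean of the other 9 with a Pearson r of 0.95 (Irgm2) to 0.99 (Gbp5) over the 12 libraries, a description that includes the differences between groups. The order of the tumors by T cell markers was partly the same. The summed FPKM of 11 T cell genes was 18.1, 14.08 and 19.56 in CK, 22.83, 20.88 and 26.04 with PB-020, 79.07, 32.59 and 31.73 with anti-PD-1 and 37.93, 61.58 and 50.73 in the combination. CK tumor 2, PB-020 tumor 2 and combination tumor 2 were at the same end of their group by T cell markers as by the GTPase genes, and anti-PD-1 tumor 1 was the highest by both, whereas anti-PD-1 tumor 2 was not the lowest by T cell markers. The summed level of 8 natural killer cell genes was 25.88 to 49.31 in CK, 33.18 to 55.52 with PB-020, 43.54 to 108.35 with anti-PD-1 and 63.77 to 90.98 in the combination. That of 10 macrophage genes was 1884.14, 1705.33 and 2118.92 in CK and 1810.63, 1798.07 and 2138.75 with PB-020. It was 3223.14, 1673.8 and 1951.41 with anti-PD-1 and 2352.76, 2574.39 and 2197.91 in the combination. By both lists CK tumor 2, PB-020 tumor 2 and anti-PD-1 tumor 2 were the lowest of their group. PB-020 tumor 3, anti-PD-1 tumor 1 and combination tumor 2 were the highest, the same ends as by the GTPase genes. The part of these cells in the GTPase levels was not tested.

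The shares of the genes in the sum were read per tumor. Gbp2 made up 20.6% to 24.0% of the summed FPKM of the 10 genes in CK tumors, 22.7% to 25.0% with PB-020, 23.1% to 28.8% with anti-PD-1 and 24.9% to 28.9% in the combination, so that CK and the combination did not overlap. Irgm2 made up 8.32% to 9.49% in CK, 7.34% to 7.35% with PB-020, 5.11% to 6.86% with anti-PD-1 and 4.78% to 5.83% in the combination. The antibody groups lay below the others, and PB-020 alone also lay wholly below CK. The mean share of Irgm1 was 15.6% ± 1.95 for CK (SD, n = 3) and 12.2% ± 0.755 for the combination, and that of Tgtp1 was 5.85% ± 1.07 and 8.07% ± 0.447. The Tgtp1 share depends on the uncertain split of reads between Tgtp1 and Tgtp2. Over all 12 tumors the share ran from 2.21% to 2.93% for Gbp5, from 4.07% to 5.04% for Gbp6 and from 4.46% to 5.64% for Gbp7. These shares add to 100% by construction, and no test was run on them.

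**Figure D4:**
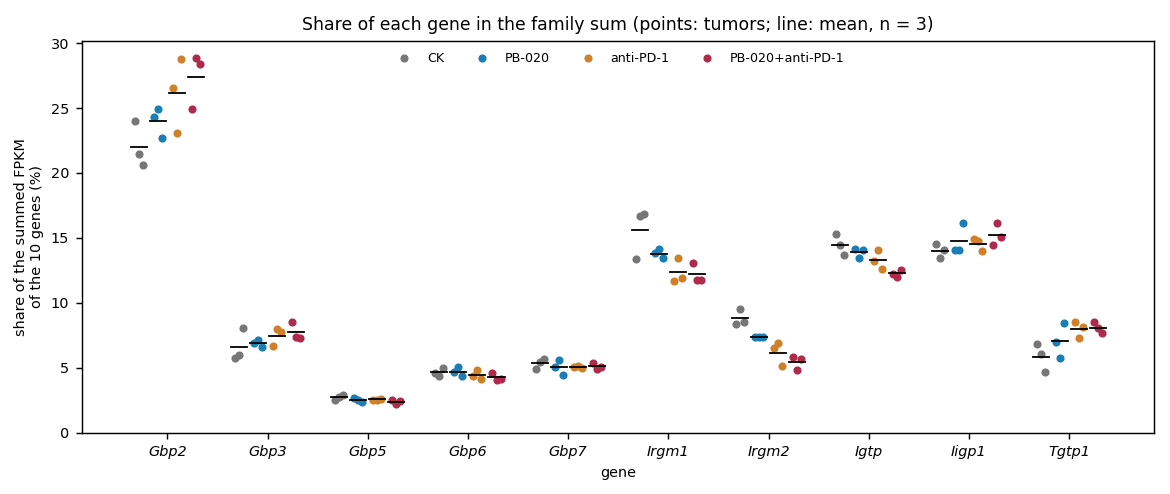
Share of each gene in the summed FPKM of the 10 GTPase genes in percent, by group (points are tumors, lines the mean of 3). Irgm2 reads 8.32% to 9.49% in CK and 4.78% to 5.83% in the combination, while Gbp2 reads 20.6% to 24.0% and 24.9% to 28.9%.

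The relatives of the 10 genes were read next. Of 28 further GTPase genes listed, 21 were in the table and 20 were tested. With anti-PD-1, 7 were raised and 1 lowered, where 4.18% of all genes were raised and 4.08% lowered, and in the combination 11 were raised and 1 lowered, where 8.35% of all genes were raised and 9.6% lowered, with median log2 changes of 0.85 and 0.89. Gbp4, Gbp8 and Gbp10 were raised in both, Gbp10 the most of these with log2 changes of 1.57 ± 0.37 (adjusted p = 0.0311) and 1.55 (adjusted p = 0.0184). The largest log2 change on the list in the combination was 1.82, in another gene. The giant GTPase genes Gvin1 and Gm4070 were raised by 1.48 and 1.56 with anti-PD-1 and by 1.42 and 1.43 in the combination, and Gm12185 by 1.44 and 1.28. The log2 change of Gbp9, a neighbour of Gbp4 on chromosome 5, was 0.49 (adjusted p = 0.268) and 0.37 (adjusted p = 0.362), with 18.3 to 35.4 FPKM in CK. Irgq, a distant relative, was 6.23 to 7.19 FPKM in CK and 5.16 to 6.44 in the combination (adjusted p = 0.175). Atl1, an atlastin that shapes the endoplasmic reticulum, was the one lowered, by -0.77 (adjusted p = 0.0326) and -0.86 (adjusted p = 0.0121). With single tumors left out, the 7 raised became 2 without anti-PD-1 tumor 3, 3 without CK tumor 2 or anti-PD-1 tumor 1 and 4 without CK tumor 3. The 11 became 3 without CK tumor 2, 4 without combination tumor 1 or 2, 5 without CK tumor 1 or 3, and 6 without PB-020 tumor 1 or combination tumor 3. The call of Atl1 was lost with anti-PD-1 without CK tumor 2, CK tumor 3, anti-PD-1 tumor 1 or anti-PD-1 tumor 3, and in the combination without CK tumor 2 or combination tumor 1.

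Genes upstream of the family were read in the same way. Here and for the lists that follow, the shares of all genes called were 4.18% raised and 4.08% lowered with anti-PD-1. In the combination they were 8.35% and 9.6%. Ifng, the cytokine itself, read 0.82, 0.72 and 0.73 FPKM in CK, 1.06, 0.84 and 1.84 with PB-020, 5.36, 1.5 and 2.85 with anti-PD-1 and 2.03, 3.91 and 3.61 in the combination. Its log2 change was 2.10 ± 0.45 (adjusted p = 0.0181) with anti-PD-1 and 2.08 (adjusted p = 0.00945) in the combination, though it stayed far below the GTPase genes in level. Irf1, a transcription factor of the pathway, was raised by 0.93 (adjusted p = 0.0181) and 0.69 (adjusted p = 0.0274). Of 15 interferon gamma signaling genes, 7 were raised with anti-PD-1, and 8 raised and 1, Jak1, lowered in the combination. The receptor chain Ifngr1 read 43.9 to 45.2 FPKM in CK and 39.7 to 44.8 in the combination, with log2 changes of -0.0048 (adjusted p = 0.978) and -0.04 (adjusted p = 0.785). The inhibitors Socs1 (0.93 and 0.85) and Ptpn2 (0.29 and 0.33) were raised in both comparisons. The 7 calls of this list became 1 without CK tumor 2 or anti-PD-1 tumor 3, 2 without CK tumor 1, 3 without PB-020 tumor 1 or anti-PD-1 tumor 1, and 4 without CK tumor 3, combination tumor 2 or combination tumor 3. The 8 became 1 without CK tumor 2 or combination tumor 1, 2 without combination tumor 2 or 3, 3 without CK tumor 1 and 5 without PB-020 tumor 1, and 0 were lowered without any single tumor other than anti-PD-1 tumor 1 or combination tumor 3.

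Of 19 other targets of the cytokine tested, 7 were raised with anti-PD-1 and 9 in the combination, none lowered, with medians of 0.74 and 0.76 on the log2 scale. Ido1, which breaks down tryptophan, had the largest change of the list, from 0.38 to 1.10 FPKM in CK to 7.34 to 8.74 in the combination (log2 change 3.36, adjusted p = 0.0023). Cxcl9, a chemokine for T cells, was raised by 1.94 (adjusted p = 0.0104). Leaving out 1 tumor turned the 7 calls into 1 without CK tumor 2, anti-PD-1 tumor 1 or anti-PD-1 tumor 3, 2 without CK tumor 1, PB-020 tumor 1 or combination tumor 3, 3 without combination tumor 1 or 2, and 4 without PB-020 tumor 3. It turned the 9 into 3 without combination tumor 1 or 2, 4 without CK tumor 1 or anti-PD-1 tumor 3, and 5 without CK tumor 2, PB-020 tumor 1 or combination tumor 3; the count was 13 without CK tumor 3.

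Among 20 genes listed for type I interferon, edgeR called 0 with anti-PD-1 (3 at an unadjusted p under 0.05; 2 by DESeq2, 0 by limma) and 1 in the combination, Zbp1, with log2 changes of 1.22 (adjusted p = 0.051) and 1.10 (adjusted p = 0.0458). Their median changes were 0.61 and 0.67, positive for 20 of 20 in both comparisons. Without CK tumor 3, the tumor high in neutrophil genes, 2 were called with anti-PD-1 and 3 in the combination; without PB-020 tumor 2, 1 was called in each; without any other single tumor, 0 were called in either. Usp18, one of them, read 20.35 FPKM in combination tumor 1 and 3.99 to 11.74 in the other 11, a tumor that stood apart for no GTPase member. The difference between the GTPase genes and this list was not tested. Of the type I receptor genes, Ifnar2 had log2 changes of -0.07 and -0.07, and Ifnar1 was lowered in the combination, by -0.26 (adjusted p = 0.0325), a call lost without any 1 of the CK or combination tumors.

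**Figure D5:**
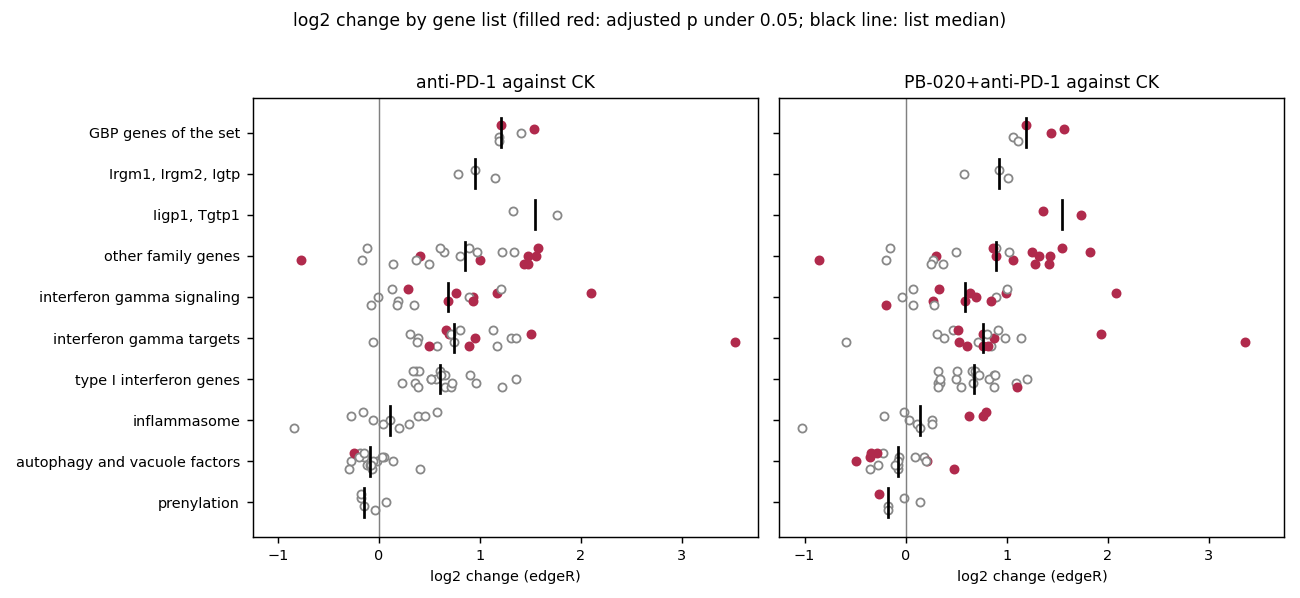
log2 change (edgeR) of each gene by list, for anti-PD-1 against CK (left) and the combination against CK (right); filled red points have an adjusted p under 0.05 and black lines are list medians. The GTPase members lie between 0.58 and 1.76, the type I interferon genes between 0.23 and 1.35, and the autophagy and vacuole factors and prenylation genes on both sides of 0.

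Genes whose products work with the GTPases were called in both directions. Of all genes, 4.18% were raised and 4.08% lowered with anti-PD-1, and 8.35% and 9.6% in the combination. Whether the counts of these lists differ from those shares was not tested. Of 17 genes for autophagy factors and for ubiquitin ligases, adaptors and galectins that act at vacuoles, 1 was lowered with anti-PD-1, and 2 were raised and 4 lowered in the combination. Map1lc3b fell by 0.35 (adjusted p = 0.00463) and Gabarapl1 by 0.49 (adjusted p = 0.00666) on the log2 scale in the combination, and Trim21, a ubiquitin ligase, rose by 0.48 (adjusted p = 0.032). The call with anti-PD-1 was lost without CK tumor 1, CK tumor 2, PB-020 tumor 1, anti-PD-1 tumor 1 or anti-PD-1 tumor 3. Without anti-PD-1 tumor 2, 2 were lowered, and without CK tumor 3, 1 was also raised. In the combination the 2 raised became 0 without CK tumor 1, CK tumor 2 or any combination tumor and 1 without CK tumor 3, PB-020 tumor 1, PB-020 tumor 3 or anti-PD-1 tumor 3, and the 4 lowered became 2 without CK tumor 2, combination tumor 1 or combination tumor 2. Of 5 prenylation genes, whose enzymes attach the lipid anchor of proteins such as Gbp2 and Gbp5 or trim and methylate the end that carries it, edgeR called 0 with anti-PD-1 (1 at an unadjusted p under 0.05, downward; 0 by DESeq2 and limma) and 1 lowered in the combination, the methyltransferase gene Icmt (-0.26, adjusted p = 0.0443). That call was lost without any single tumor other than CK tumor 3, anti-PD-1 tumor 1, anti-PD-1 tumor 3 or combination tumor 3. Of 11 inflammasome genes, 0 were called with anti-PD-1 by edgeR, DESeq2 or limma (4 raised and 1 lowered at an unadjusted p under 0.05) and 3 were raised in the combination: Aim2 by 0.63 (adjusted p = 0.0123), Casp1 by 0.77 (adjusted p = 0.0157) and Pycard by 0.80 (adjusted p = 0.0202). Without CK tumor 3, 3 inflammasome genes were raised with anti-PD-1, and without anti-PD-1 tumor 2, 1 was raised and 1 lowered; in the combination 1 was raised without CK tumor 2 or combination tumor 2.

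Among the 10 genes outside the set whose log2 CPM followed the members' mean most closely over the 12 libraries were Gm12250 (Irgb10), Ifi47, Gbp4, Tap1, Tgtp2, Tapbpl, Gm4841, Psmb8 and H2-D1, with Pearson r from 0.99 for Gm12250 to 0.98 for H2-D1. The first 3 and Tgtp2 were on the list of further GTPase genes. Gm12250 read 16.60, 7.22 and 16.06 FPKM in CK and 33.49, 31.76 and 28.29 in the combination, a log2 change of 1.25 (adjusted p = 0.0478). Libraries of the same group share their treatment, so these values describe likeness over 4 groups and not independent co-variation.

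Markers of other cells moved with the antibody beside the GTPase genes. The shares of all genes were again 4.18% raised and 4.08% lowered with anti-PD-1, and 8.35% and 9.6% in the combination. Of 11 T cell genes tested, 9 were raised with anti-PD-1 and 10 in the combination (median log2 changes 1.53 and 1.55), Cd3d by 2.03 and 2.25. The 9 became 0 without CK tumor 2, 1 without CK tumor 1 and 3 without CK tumor 3, and the 10 became 4 without CK tumor 2 and 6 without combination tumor 2. Of 10 macrophage genes, 0 were called in either comparison by edgeR, DESeq2 or limma (0 and 1 at an unadjusted p under 0.05), although the summed macrophage level of the combination, 2197.91 to 2574.39 FPKM, lay above the 1705.33 to 2118.92 of CK. Without anti-PD-1 tumor 1, 2 macrophage genes were lowered in each comparison and 1 was raised in the combination; without CK tumor 3 or anti-PD-1 tumor 2, 1 was raised in each. All 5 erythroid genes were lowered, with medians of -2.36 and -2.99. With anti-PD-1 these 5 calls became 0 without CK tumor 1, CK tumor 2 or anti-PD-1 tumor 3, 2 without combination tumor 1, and 3 without PB-020 tumor 1, PB-020 tumor 3, anti-PD-1 tumor 2, combination tumor 2 or combination tumor 3; in the combination they became 2 without combination tumor 1. Of 9 fibroblast genes 4 were lowered in each comparison, Col3a1 and Dcn in both, although the list medians were 0.37 and 0.24. The 4 with anti-PD-1 became 1 without CK tumor 2 and 2 without anti-PD-1 tumor 3. How far any differences in cell makeup enter the GTPase values was not tested. Without anti-PD-1 tumor 1, the tumor high in muscle and T cell genes, the median member change against CK was 1.02 with anti-PD-1 with 0 of 10 called, and the 6 against 6 comparison without it called 8 of 10.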

How the data were processed

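The table holds 12 MC38 tumor libraries in 4 groups of 3, taken from the labels. Per the labels total RNA was extracted; the authors sequenced it on an Illumina instrument, mapped reads with Bowtie2 and quantified genes with RSEM; the submitters' processing notes also name HISAT and the build GRCm38.p6. The deposited expected counts are RSEM's estimated counts per gene, and the deposited FPKM and TPM values were scaled by the authors for length and depth. Expected counts were rounded to whole numbers and tested with edgeR 4.0.16 (TMM, filterByExpr with a minimum count of 10, quasi-likelihood test) in R 4.3.3, on all 12 libraries, with Benjamini-Hochberg adjustment over 13563 genes. FPKM served for levels. Alternatives were DESeq2 1.42.0, limma 3.58.1 on log2(FPKM + 1) and log2(FPKM + 0.1), other scalings and filters (none, or a mean count of at least 50), only the groups compared, a replicate block, leaving out each library, and a fold over 1.5 together with edgeR's unadjusted p under 0.05 (the study's thresholds, but not its test); TPM, CPM, the sum of Tgtp1 and Tgtp2 and leave-one-out counts of lowered genes and marker lists were added after seeing the data. On simulated counts for the combination against CK, 46 of 67 genes changed 2-fold and 35 of 67 changed 1.5-fold were called, and 5 of 13286 unchanged genes. The 12 columns of group averages, which are the authors' means, were not used.

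The members and lists were chosen with earlier results of these data known. All members are named, as may be the further GTPase, interferon gamma signaling and type I receptor genes; other lists give up to 4 genes each, ranked by unadjusted p for the combination against CK, and the 10 genes closest to the members' mean. Epithelial genes were named to check the tissue. Promoters came from RefSeq (GRCm38.p6). Results for 1 gene are not reported here.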

Additional observations from a re-analysis of the deposited data

How the results depend on the processing

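Every member kept a positive log2 change in all alternatives: 0.53 to 2.07 with anti-PD-1 against CK, 0.35 to 2.05 in the combination against CK, and 0.56 to 1.70 for 6 tumors against 6. The groups of all 10 members also did not overlap in TPM or CPM. The number of members called moved. With anti-PD-1 the 2 calls became 9 by DESeq2, 0 with no filter on low counts, 6 with the replicate block, 0 with only the groups compared and 10 under the fold and unadjusted p rule; leaving out single libraries gave 0 to 9. In the combination the 5 calls became 9 by DESeq2, 9 with the replicate block, 2 with only the groups compared and 9 under the fold rule, and 0 to 9 when libraries were left out. For the combination against PB-020 the 0 calls became 4 by DESeq2, 1 with the replicate block and 9 under the fold rule, and 0 to 1 when libraries were left out. For 6 against 6, leaving out libraries gave 8 to 10. Leaving out libraries gave 0 in the other 3 comparisons.

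Over all genes, anti-PD-1 against CK gave 1120 calls, and 3 with only the groups compared (137 to 1905 with libraries left out). The combination gave 2434, and 1155 under the fold rule (864 to 3344). Against PB-020 the combination gave 455, with 1109 by DESeq2, 1535 with only the groups compared and 804 under the fold rule (0 to 1269). PB-020 against CK gave 0, with 6 by DESeq2 and 76 under the fold rule (0 to 2), the combination against anti-PD-1 gave 0, with 1 by DESeq2 and 109 under the fold rule (0 to 2), and the interaction gave 0, with 98 under the fold rule (0 to 1). For 6 against 6 the count was 3279, and 1048 under the fold rule (2086 to 3690). The cause of these differences was not tested. Over all genes tested, the deviations of same-numbered tumors had correlations of -0.21 to 0.29, and the numbers were not taken to pair the tumors. Whether same-numbered tumors shared a batch is not given in the sources used here. The block removed no member's call.

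With 3 tumors per group, changes of 1.5-fold were missed in about every other simulated gene, so an uncalled member is not shown to be unchanged. Bulk RNA gives no cell of origin. The antibody groups differed from CK in T cell and erythroid marker transcripts, and fewer of these were called without some single tumors. Cell content itself was not measured.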
